A study of Arabidopsis thaliana with 12 samples.

Results

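Cytochrome P450 genes were examined in Arabidopsis thaliana rosette leaves 5 min after mechanical wounding. The members are the spots of the array that the platform annotation assigns to exactly 1 gene with a symbol of the form CYP71B2, that is CYP, a family number, a subfamily letter and a gene number. The rule found 17 genes, each with 1 spot, among 9253 genes that the annotation names on an array of 22575 spots. Of these genes, 14 belong to subfamily CYP71B, and the others are CYP78A9, CYP79A2 and CYP84A4. CYP718, a cytochrome P450 gene whose symbol lacks a subfamily letter, did not meet the rule. The spot named CYP71 did not meet it either and is a cyclophilin gene in the gene table.

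All plants were soil-grown, 3-week-old plants of ecotype Columbia-0 (Col). In the wounded samples the rosette leaves were crushed with a hemostat and taken after 5 min, and the other samples were not wounded. Each of 3 biological replicates was a pair of pools of plants, hybridised on 4 two-colour arrays, of which 2 carried the wounded sample in Cy5 and 2 carried it in Cy3. A pool averages over many plants, and a change in the share of a cell type cannot be told apart from a change in RNA per cell.

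Cytochrome P450 enzymes are heme proteins that split molecular oxygen and insert 1 of its atoms into a substrate. Most plant P450s are anchored in the endoplasmic reticulum and take electrons from an NADPH-dependent reductase. In leaves they act in the synthesis and breakdown of hormones and in the synthesis of pigments, phenolics, cutin, glucosinolates and defence compounds. CYP71B is a large subfamily in Arabidopsis with many tandem copies. Its best known member, CYP71B15 (PAD3), completes the synthesis of the antimicrobial compound camalexin and is not analysed here. The substrates of most of the CYP71B genes below are not given, since no role was certain enough to state.

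Values are log2 ratios of the wounded over the not wounded signal, taken on each array, with 1 mean of 4 arrays for every biological replicate. Spots with a deposited ratio of exactly 0 on some arrays were tested only if each dye-swap pair held an array with another value. In all 20072 genes and unnamed spots were tested, among them 16 of the 17 P450 genes. Each mean was tested against 0 with limma over the 3 replicates, with Benjamini-Hochberg adjustment over all 20072, and called at an adjusted p under 0.05. CYP71B31 was not tested, since its deposited ratio was 0 on both arrays of a pair.

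Of the 16 tested P450 genes, 1 rose and 1 fell, and 14 were not called. CYP71B26 rose to 1.62-fold, and CYP78A9, which promotes the growth of floral organs, fruits and seeds, fell to 0.733-fold. Over all genes and spots, 7.25% were higher and 7.24% lower at the same threshold, so the share of P450 genes called, 6.25% in each direction, was close to the background. None of the P450 genes reached a 2-fold change. Such changes with p at most 0.01 were rare over all features too, at 0.643% higher and 0.135% lower. At an unadjusted p under 0.05 from limma, 2 P450 genes were higher and 2 were lower, against 16.6% and 16.4% of all features. The median log2 ratio of the tested P450 genes was 0.04, with a range of -0.45 to 0.69, beside a median of 0.00 over all features. Their median absolute log2 ratio was 0.11, against 0.13 over all features.

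CYP71B26 (AT3G26290) had log2 ratios of 0.79, 0.70 and 0.59 in biological replicates 1, 2 and 3. Its signal was 1694, 1506 and 946 in wounded leaves, against 983, 927 and 629 in leaves that were not wounded. The wounded signal was the higher of the pair in every replicate, although the ranges overlap, with replicate 3 the dimmest in both samples. The mean log2 ratio was 0.69 ± 0.10 (SD, n = 3 biological replicates), with a 95% interval of 0.52 to 0.86 and an adjusted p of 0.014 by limma. On single arrays the log2 ratio lay between 0.53 and 0.75 with the wounded sample in Cy5 and between 0.55 and 0.91 with it in Cy3. It was therefore higher on 12 of 12 arrays, as were 7.47% of all features. Its signal was above the dim limit on every array in both samples, where the dim limit is the level under which 95% of signals lie at spots with a deposited ratio of 0 (81 to 124, depending on the array). In rank of p the gene stood at 262 of 20072. The call was lost without replicate 2 (adjusted p = 0.065 from limma, log2 ratio 0.69) and without 1 array of replicate 3 whose labels carry differing numbers (adjusted p = 0.052). Leaving out that array leaves the dyes unbalanced, and without its whole dye-swap pair the adjusted p was 0.018. Calls were then few over all features too, with 0.693% higher without replicate 2 and 0.862% without the array, against 6.61% without the pair.

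CYP78A9 (AT3G61880) had log2 ratios of -0.58, -0.51 and -0.25 in replicates 1, 2 and 3. Its signal was 486, 425 and 383 in wounded leaves, against 728.3, 606 and 457 in leaves that were not wounded. The wounded sample was the lower in each replicate, by the least in replicate 3, and the ranges overlap. The mean log2 ratio was -0.45 ± 0.17 (SD, n = 3), with a 95% interval of -0.67 to -0.23 and an adjusted p of 0.036 by limma. It was lower on 12 of 12 arrays, as were 6.73% of all features, and no signal was under the dim limit. With the wounded sample in Cy5, replicate 3 had a log2 ratio of -0.09, and the mean over that orientation was -0.35 (adjusted p = 0.10 from limma), against -0.55 with it in Cy3 (adjusted p = 0.022). The call was lost when any replicate was left out, with adjusted p values of 0.086, 0.16 and 0.062 from limma without replicate 1, 2 and 3. Over all features 8.38%, 0.254% and 1.1% were called lower in these 3 fits. Without the array of differing labels the adjusted p was 0.097, with 0.409% of all features called lower, and without its dye-swap pair it was 0.038.

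**Figure D1:**
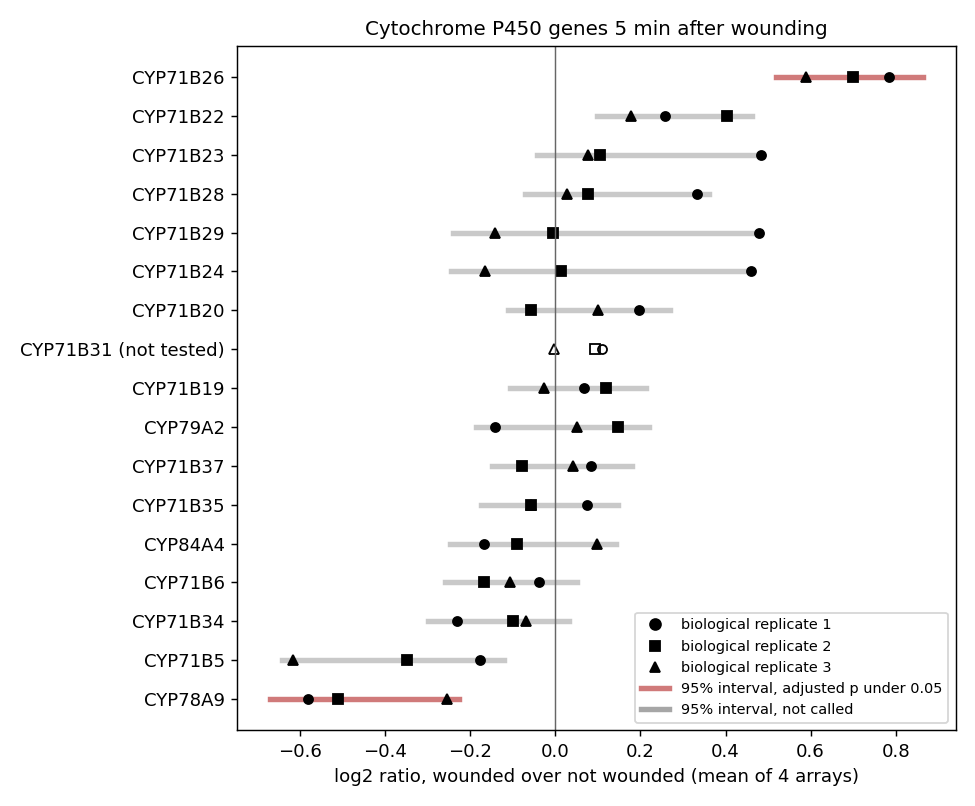
Log2 ratio of wounded over not wounded for the 17 P450 genes, with a point for each biological replicate (mean of 4 arrays) and a bar for the 95% interval of the mean from limma. The 2 called genes lie at the ends, CYP71B26 at 0.69 and CYP78A9 at -0.45, and open points mark CYP71B31, which was not tested.

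Next to these genes were CYP71B22 and CYP71B5, which passed an unadjusted but not an adjusted threshold. CYP71B22 (AT3G26200) had log2 ratios of 0.26, 0.40 and 0.18, with a mean of 0.28 ± 0.11 (SD, n = 3) and an adjusted p of 0.064 by limma. The 95% interval for CYP71B22 was 0.10 to 0.46, which is not adjusted for the number of features. Its signal was 197, 194 and 223 in wounded leaves, against 165, 147 and 197 in leaves that were not wounded. The wounded signal was the higher in each replicate, and the ranges overlapped, with replicate 3 the brightest in both samples. With the wounded sample in Cy5, however, its log2 ratio averaged -0.41 (adjusted p = 0.12 from limma), and with it in Cy3 0.97 (adjusted p = 0.0054). The not wounded signal of CYP71B22 was under the dim limit on 1 array.

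CYP71B5 (AT3G53280) had log2 ratios of -0.18, -0.35 and -0.62, with a mean of -0.38 ± 0.22 (SD, n = 3) and an adjusted p of 0.071 by limma. Its signal was 385, 333 and 149 in wounded leaves, against 435, 424 and 228 in leaves that were not wounded. The wounded sample was lower in each replicate. The mean ratio had opposite signs in the dye orientations, with 0.76 when the wounded sample was in Cy5 and -1.53 when it was in Cy3. In replicate 3 these values were 1.67 and -2.91. There the Cy3 signal of the wounded sample was 44.6 and 55.7 on the arrays that carried it in Cy3, which is under the dim limit, while the Cy5 signal of the not wounded sample was 357 and 392. On the arrays of replicate 3 with the wounded sample in Cy5, its signal was 399 and 492 in wounded leaves, against 111 and 174 in leaves that were not wounded. The value of 111, read in Cy3, was also under the dim limit, which was 118 on that array. The part of the dye in the mean of CYP71B5 was not tested.

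**Figure D2:**
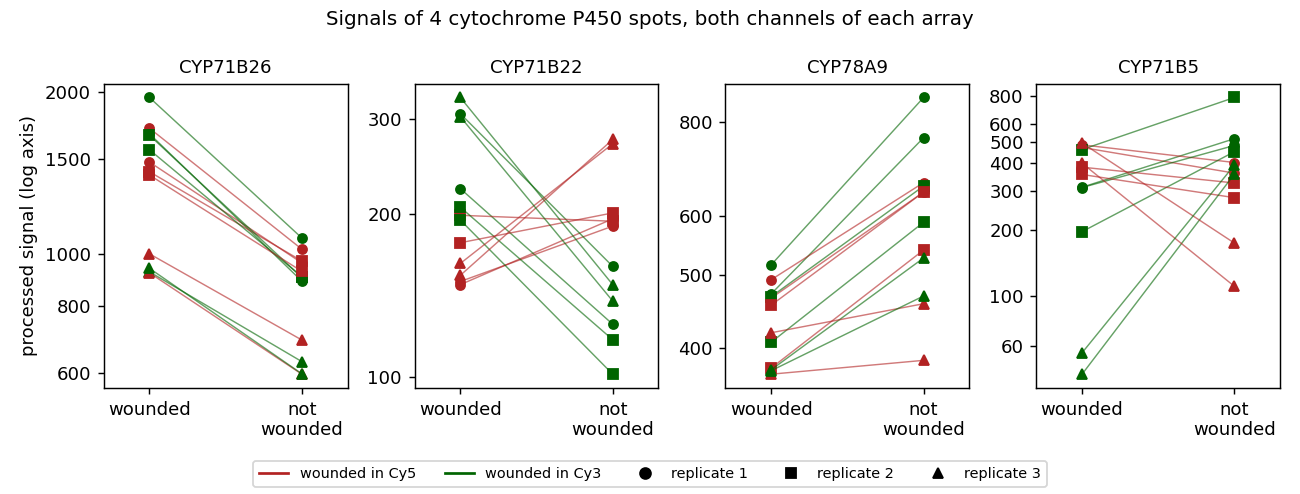
Processed signals (log axis, a separate range per gene) of CYP71B26, CYP71B22, CYP78A9 and CYP71B5 on each of 12 arrays, with a line joining the wounded and the not wounded channel of an array. Lines of both dye orientations run the same way for CYP71B26 and CYP78A9, and in opposite ways for CYP71B22, apart from 1 array, and for CYP71B5.

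The 9 measured genes between CYP71B19 and CYP71B37 lie in a run on chromosome 3. In the gene table this run holds 18 protein-coding genes, of which 14 are P450 genes, and 5 of the P450 genes are not analysed here. CYP71B26 was the only called gene of the 9, where 14.5% of all features were called in either direction. With so few genes, this count is no result about the run. Its immediate neighbours in the table are CYP71B4, which is not analysed here, and CYP71B34. CYP71B34 had log2 ratios of -0.23, -0.10 and -0.07 and was lower on 11 of 12 arrays, with a mean of -0.13 (adjusted p = 0.22 from limma). Per replicate the log2 ratio of CYP71B26 exceeded that of CYP71B34 by 1.02, 0.80 and 0.66, a mean difference of 0.83 ± 0.18 (SD, n = 3). An exact sign permutation test of this difference gave a two-sided p of 0.25, the smallest that 3 replicates allow, and 0.62 after adjustment over 5 pairs of adjacent genes. The spot of 1 gene inside the run that is no P450, AT3G26240, had a mean log2 ratio of -0.03 (adjusted p = 0.72 from limma).

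The other genes of the run had smaller ratios, given here for replicates 1, 2 and 3. CYP71B23 had 0.48, 0.10 and 0.08 (adjusted p = 0.21 from limma), and CYP71B20 had 0.20, -0.06 and 0.10 (adjusted p = 0.50). CYP71B19 had 0.07, 0.12 and -0.03 (adjusted p = 0.59), and CYP71B24 had 0.46, 0.01 and -0.17 (adjusted p = 0.64). On the other side of CYP71B26 and CYP71B34, CYP71B35 had 0.07, -0.06 and -0.06 (adjusted p = 0.90), and CYP71B37 had 0.08, -0.08 and 0.04 (adjusted p = 0.89). None of these 6 genes was called, against 14.5% of all features in either direction, which with so few genes is no result about them. Tandem copies of a subfamily can be alike in sequence, and how far their spots share signal was not tested here.

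**Figure D3:**
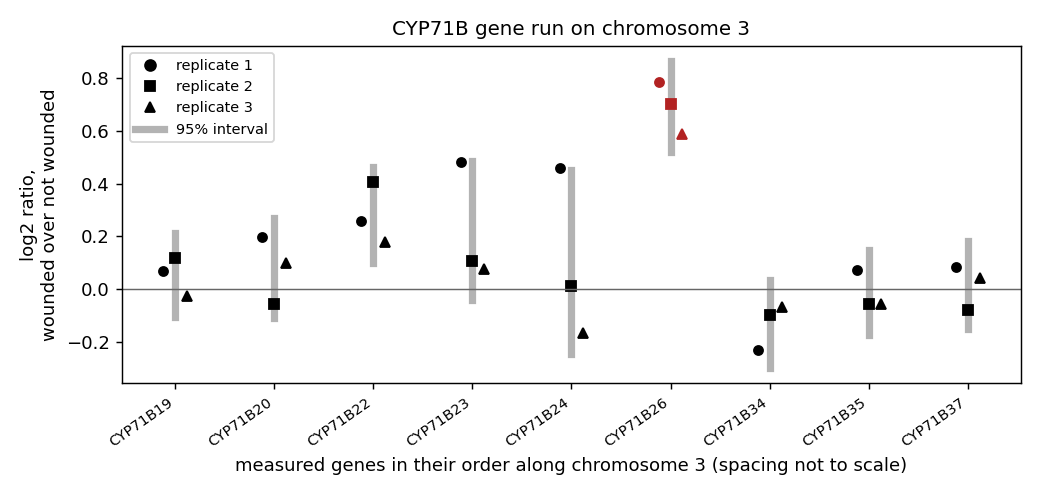
Log2 ratio of wounded over not wounded for the 9 measured CYP71B genes of a run on chromosome 3, in gene order, with a point per biological replicate and a grey bar for the 95% interval from limma. CYP71B26, in red, lies between 0.59 and 0.79, above the interval of every neighbour shown.

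Of the CYP71B genes outside the run, CYP71B28 and CYP71B29 are adjacent on chromosome 1. CYP71B28 had log2 ratios of 0.33, 0.08 and 0.03 (adjusted p = 0.29 from limma) and CYP71B29 had 0.48, 0.00 and -0.14 (adjusted p = 0.61). Their ratios differed by 0.03 ± 0.16 on average (SD, n = 3). The exact sign permutation test gave a two-sided p of 0.75, and 0.94 after adjustment over 5 pairs. Since 0.25 is the smallest p that 3 replicates allow, this test could not have shown a difference. In CYP71B28, CYP71B29, CYP71B23 and CYP71B24 replicate 1 had the highest ratio, between 0.33 and 0.48, while replicates 2 and 3 lay between -0.17 and 0.10. These 4 genes were picked after their values were seen. Over all features, replicate 1 correlated with replicates 2 and 3 at a Pearson r of 0.60 and 0.54, and replicates 2 and 3 with each other at 0.74, across features that are not independent.

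Besides CYP78A9, the tested members with a known role were CYP71B6, CYP79A2 and CYP84A4. None of them was called, against 14.5% of all features in either direction, which with so few genes is no result about them. CYP71B6, which oxidises indole-3-acetonitrile to indole-3-carbaldehyde, had log2 ratios of -0.04, -0.17 and -0.11. Its signal was 2422, 1883 and 1270 in wounded leaves, against 2486, 2114 and 1368 in leaves that were not wounded, so that every replicate was lower by a small amount (adjusted p = 0.30 from limma; 95% interval of the log2 ratio -0.26 to 0.05). CYP79A2, which converts phenylalanine to its aldoxime on the way to benzyl glucosinolate, had -0.14, 0.15 and 0.05 (adjusted p = 0.90). CYP84A4, a relative of ferulate 5-hydroxylase that acts in the synthesis of arabidopyrones, had -0.17, -0.09 and 0.10 (adjusted p = 0.67). Both changed sign between replicates. CYP71B31, an enzyme of linalool oxidation in flowers, had a signal of 68.1, 73.3 and 81.02 in wounded leaves, against 63.1, 68.7 and 81.3 in leaves that were not wounded. These values were under the dim limit on 10 of 12 arrays in the wounded sample and 11 in the not wounded sample, so no change was measurable.

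Of the 14 genes that were not called, 13 had a 95% interval that lay within 0.5 of 0 on the log2 scale, the exception being CYP71B5 with -0.64 to -0.12. The share of all features with such an interval was not counted, so this count is no result about the P450 genes. A p that misses the threshold does not show that a gene did not change. Across replicates, 4 of the 16 genes were higher in 3 of 3, against 28.5% of all features, and 4 were lower in 3 of 3, against 27.4%. The 4 higher were CYP71B26, CYP71B22, CYP71B23 and CYP71B28, and the 4 lower were CYP78A9, CYP71B5, CYP71B34 and CYP71B6. The other 8 had both signs among replicates.

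At the P450 spots, as over all features, the median difference between the dyes was larger in size than the median change after wounding. The median absolute dye effect, as log2 of Cy5 over Cy3, was 0.26 over the tested P450 genes and 0.21 over all features. The median absolute log2 ratios after wounding were 0.11 and 0.13. A limma fit to the 12 arrays with a dye term and the biological replicate as a block gave a dye effect at an adjusted p under 0.05 for 6 of the 16 genes, against 45.2% of all features. These were CYP71B19, CYP71B22, CYP71B35, CYP71B37, CYP71B5 and CYP79A2. In 11 of the 16 genes the mean log2 ratio had opposite signs in the 2 orientations, against 60.9% of all features. CYP71B19 had the widest gap, with -1.19 when the wounded sample was in Cy5 and 1.29 when it was in Cy3, and a mean of 0.05. Its wounded signal was under the dim limit on 4 arrays and its not wounded signal on 2. The 5 genes with the same sign in both orientations were CYP71B26, CYP78A9, CYP71B34, CYP71B6 and CYP71B28, although for CYP71B28 the value with the wounded sample in Cy5 was 0.00. In this fit to single arrays 4 P450 genes were higher, against 22.5% of all features, and 4 were lower, against 22.6%. These were the same 8 genes whose replicates all had the same sign, but the fit counts arrays of the same extracts and is not set beside the test over 3 replicates.

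**Figure D4:**
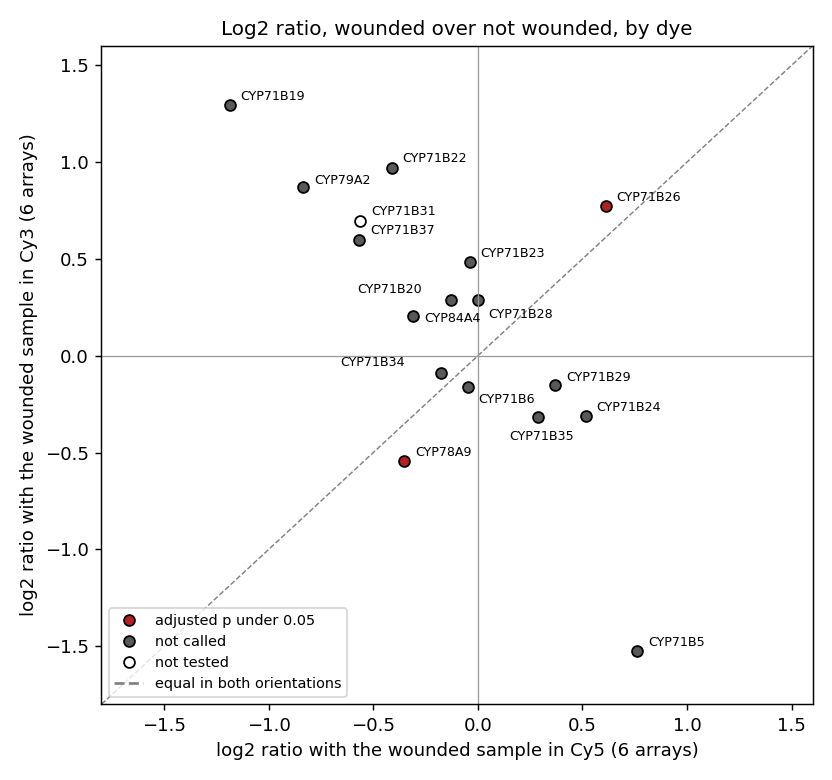
Mean log2 ratio of wounded over not wounded for each P450 gene for wounded in Cy5 (x axis, 6 arrays) and wounded in Cy3 (y axis, 6 arrays). Points near the dashed line had equal ratios in both orientations, as CYP71B26 (0.61 and 0.77) and CYP78A9 (-0.35 and -0.55) nearly did, while CYP71B19 and CYP71B5 lie far from it.

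The lists of P450 genes by role held 100 symbols in 12 groups, and 5 of these symbols are members, in 5 of the groups. The lists for jasmonate, brassinosteroid, gibberellin, abscisic acid, cytokinin and strigolactone, cutin, and carotenoid P450 genes had no member here and are not analysed here. Of the 5 members on these lists 4 were tested, of which 0 rose and 1 fell, namely CYP78A9 on the list for organ growth. Over all features 7.25% were higher and 7.24% lower. This call of CYP78A9 is the one given above, which was lost when any replicate was left out. At an unadjusted p under 0.05 from limma CYP78A9 was also the only one, against 16.6% of all features higher and 16.4% lower. Of 11 genes listed as partners of P450 enzymes, such as reductases, 1 was found, and whether it supplies electrons to P450 enzymes was not tested. This gene, AT3G02280, the diflavin reductase TAH18, had log2 ratios of -0.08, -0.30 and -0.14 (adjusted p = 0.16 from limma), with -0.66 when the wounded sample was in Cy5 and 0.31 when it was in Cy3. As a check of the tissue, 2 of 21 leaf mesophyll markers were found, and RCA and LHCB4.1 had mean signals of 135194 and 286875 in wounded leaves, against 184674 and 293111 in leaves that were not wounded. For RCA the mean log2 ratio was -0.45, for which limma gave an adjusted p of 0.041, and its part in the P450 results was not tested. The tapetum gene AMS was under the dim limit on 11 of 12 arrays in each sample. Of the root genes on the marker list EXPA7 was above that limit on all arrays, with 288 and 287 in wounded leaves and leaves that were not wounded, and LBD16 was near it, with 112 and 114.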

How the data were processed

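The authors scanned the arrays and read them with Agilent Feature Extraction 8.1 at default settings, and deposited the processed intensity of both dyes, which was corrected for background and scaled on housekeeping genes. They also deposited log10 ratios of Cy5 over Cy3, which are limited to 2 in size and exactly 0 at 1129 to 2714 spots per array. Most of these spots are dim, but not every dim spot has a ratio of 0. Set against the ratio of the intensities on each array, their scale and direction agreed over unclipped spots with a ratio other than 0, and the median of each column was 0. These ratios served for the filter and as an alternative.

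Each dye was matched to its sample by the labels of the channels. In replicate 3, the title of 1 array and the label of its wounded channel carry different numbers, and the title was used. The growth label and the methods give the hours of light and dark in opposite order. Log2 ratios were averaged per biological replicate and per gene, and tested with limma 3.58.1 in R 4.3.3 (lmFit, eBayes) against 0, so that wounded and not wounded samples stay paired. Flags, slide and scan were not used here, and no spot was removed as a control. Spots with 1 gene numbered 9335, with several 40, and with none 13200. Current names and the order of genes were taken from the gene table, which is of assembly TAIR10.1. Simulated data with known changes served as a check of the script. Intervals are limma's 95% intervals. The number of replicates limits the precision.

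The rule for named genes took the called members, the 5 largest and 5 smallest ratios, the 5 brightest spots and up to 4 members per role list. Other members, neighbouring genes and CYP718 were named after their values were seen. The members and lists were chosen with earlier results of these data known. One listed epidermis symbol, FDH, belongs to another gene in the table and was left out, and the lists for epidermis, guard cells, phloem and xylem then had no measured gene. Nothing in the sources used here says whether pools of different replicates were grown apart, so p-values measure the spread between these pools.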

Additional observations from a re-analysis of the deposited data

How the results depend on the processing

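A wounded and a not wounded sample share each array and the ratio is taken within it, so the main test is paired. The counts of 1 P450 gene higher and 1 lower stayed as they were with median-centred arrays, loess, the deposited log ratios, a ratio other than 0 on all 12 arrays, single spots, a robust variance trend and current symbols and synonyms. Over all features 7.14% to 8.25% were higher and 7.24% to 8.46% lower in these fits. With the dimmest 25% left out 2 were higher, with CYP71B22 added (11.9% of all features), and with no filter 0 were lower (4.36%), as CYP78A9 had an adjusted p of 0.051 from limma (unadjusted p under 0.05: 2 higher, 2 lower). With the wounded sample in Cy5 only, 1 was higher and 2 lower (14.1% and 15.7% of all features), and with it in Cy3 only 6 higher and 1 lower (19.2% and 16.1%), and the median log2 ratio was -0.089 with Cy5 and 0.25 with Cy3. In the fit to 12 arrays with a dye term and replicate block 4 were higher and 4 lower, against 22.5% and 22.6% of all features, and the unpaired channels gave 0 and 0 (unadjusted p under 0.05: 1 and 0), with 27 higher and 0 lower among all 20072 features. Without the array of the differing label, which leaves the dyes of replicate 3 unbalanced, limma called 0 and 0 (unadjusted p under 0.05: 1 and 1), against 0.862% and 0.409% of all features, with an adjusted p of 0.052 for CYP71B26 and 0.097 for CYP78A9. Without its whole dye-swap pair, chosen after seeing the data, limma called 1 and 1, against 6.61% and 6.38% of all features. The adjusted p from limma was then 0.018 for CYP71B26 and 0.038 for CYP78A9. Leaving out a replicate gave 0 to 1 higher and 0 to 0 lower, the 0 higher being without replicate 2 (unadjusted p under 0.05: 1 to 2 higher, 1 to 3 lower). Over all features 7.37%, 0.693% and 1.66% were higher and 8.38%, 0.254% and 1.1% lower without replicates 1, 2 and 3. Where so few features were called, a count of 0 among 16 genes is no result about the P450 genes. At 2-fold and p at most 0.01, 0 and 0 passed, against 0.643% higher and 0.135% lower over all features. With shares that small, 0 among 16 genes is no result about the P450 genes either. At an unadjusted p under 0.05 2 and 2 passed, against 16.6% and 16.4% of all features. At an adjusted p under 0.1 the counts were also 2 and 2. The share of all features there was not counted, so these counts are no result about the P450 genes. Over 17 alternatives, CYP71B26 kept its sign in 17 and its call in 14 (log2 ratio 0.61 to 0.77), and CYP78A9 its sign in 17 and its call in 10 (-0.55 to -0.35). The adjusted p of each ranged up to 1.00, with the unpaired channels. Among genes that were not called, 24 values changed sign. With Cy5 only these were CYP71B19 (-1.19, adjusted p = 0.011 from limma), CYP79A2 (-0.83, 0.018), CYP71B37 (-0.57), CYP71B22 (-0.41), CYP71B20 (-0.13), CYP71B23 (-0.040), CYP71B35 (0.29) and CYP71B5 (0.76). With Cy3 only they were CYP71B24 (-0.31), CYP71B29 (-0.15) and CYP84A4 (0.20). Without the array of the differing label they were CYP79A2 (-0.11), CYP71B19 (-0.082), CYP71B37 (-0.019) and CYP71B35 (0.038), and without its pair CYP71B20 (-0.0092) and CYP71B35 (0.016). Over the fits that left out a replicate, ratios of both signs ranged from -0.074 to 0.24 for CYP71B29, -0.077 to 0.24 for CYP71B24, -0.057 to 0.0082 for CYP71B35, -0.019 to 0.063 for CYP71B37, -0.13 to 0.0039 for CYP84A4 and -0.047 to 0.098 for CYP79A2. The cause of these shifts was not tested. Dim spots, such as CYP71B31, limit what can be measured.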

Other observations

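CYP718, a P450 gene outside the naming rule, had log2 ratios of 0.20, -0.28 and -0.22 in replicates 1, 2 and 3, and limma gave its mean of -0.10 an adjusted p of 0.58. Replicate 1 was higher and the other replicates were lower in wounded leaves.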
